A study of Mus musculus with 12 samples.

Results

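B2 peaks are the accessible regions of the master peak-list whose centre lay on a B2 element, a short interspersed nuclear element (SINE) of the mouse genome. They were chosen by the deposited repeat annotation at the peak centre, without regard to any measured value, and numbered 1781 of 84243 peaks, or 2.11% of the list (95% Wilson interval 2.02 to 2.21%). They made up 51.2% of the 3480 SINE peaks and 14% of the 12746 peaks centred on any repeat. Accessibility was measured by ATAC-seq, in which a transposase inserts adapters into exposed DNA, in wild-type C57BL/6 mice aged 8 to 12 weeks with no further treatment. The 12 samples were 2 replicates of each of 6 cell types sorted by FACS: T cells from thymus and, from bone marrow, B cells, granulocyte/macrophages (GMs), erythroid progenitors (EPs), megakaryocyte progenitors (MkPs) and hematopoietic stem cells (HSCs). The peaks of all samples were pooled by the authors into 1 list of peaks 499 bp wide, with no value per sample, no cell type per peak and a score of 0 throughout. Depth is therefore unknown, levels of accessibility were not compared between cell types, and the intervals given here cover counting error only.

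B2 elements derive from a tRNA gene. RNA polymerase III transcribes them from an internal promoter made of an A box and a B box near the 5′ end, and the RNA ends in an A-rich tail that often holds a polyadenylation signal. They are copied to new places by the proteins of L1 elements, and some carry a binding site for CTCF, the zinc finger protein that helps to set the borders of chromatin loops. B3 and B3A are older subfamilies, whereas B2_Mm2, B2_Mm1t and B2_Mm1a are younger and closer to the active element.

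The element of each subfamily that was most like a profile of the family is shown first. Sequences are from GRCm38 (mm10, RefSeq), written 5′ to 3′ on the strand of the element, and capitals mark matches to the A box (TGGCNNAG), the B box (GTTCNANNC) and the CTCF consensus. The elements lay in peaks whose nearest genes were Rtn4 (chr11:29676828-29677034, minus strand), Sgcd (chr11:47658193-47658397, plus strand) and Grm4 (chr17:27526709-27526886, plus strand), all intergenic, and in introns of Ncoa2 (chr1:13355808-13355996, minus strand) and Gnb1 (chr4:155518221-155518403, minus strand). The intergenic peaks lay 15992 bp (Rtn4), 279061 bp (Sgcd) and 23324 bp (Grm4) upstream of the transcription start site.
B3, Rtn4: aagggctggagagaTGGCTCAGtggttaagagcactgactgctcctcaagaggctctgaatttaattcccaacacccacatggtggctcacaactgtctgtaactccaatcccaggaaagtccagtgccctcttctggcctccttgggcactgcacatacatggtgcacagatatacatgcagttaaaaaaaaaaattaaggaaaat
B3A, Sgcd: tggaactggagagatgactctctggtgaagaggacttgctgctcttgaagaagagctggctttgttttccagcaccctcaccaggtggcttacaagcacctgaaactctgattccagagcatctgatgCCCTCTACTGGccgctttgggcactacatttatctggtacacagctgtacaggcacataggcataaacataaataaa
B2_Mm2, Grm4: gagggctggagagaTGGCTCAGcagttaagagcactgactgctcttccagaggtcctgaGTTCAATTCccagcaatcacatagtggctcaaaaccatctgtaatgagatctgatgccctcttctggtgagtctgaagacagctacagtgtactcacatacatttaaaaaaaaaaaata
B2_Mm1t, Ncoa2: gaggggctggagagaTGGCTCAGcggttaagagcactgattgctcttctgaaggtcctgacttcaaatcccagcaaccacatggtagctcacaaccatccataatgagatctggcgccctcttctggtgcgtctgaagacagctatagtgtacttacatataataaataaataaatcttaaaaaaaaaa
B2_Mm1a, Gnb1: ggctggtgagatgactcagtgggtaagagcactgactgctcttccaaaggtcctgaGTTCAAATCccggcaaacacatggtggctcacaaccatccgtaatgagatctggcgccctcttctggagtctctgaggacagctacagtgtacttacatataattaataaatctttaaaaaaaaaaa

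The Grm4 element held both an A box and a B box, the Rtn4 and Ncoa2 elements held only the A box, the Gnb1 element only the B box, and the Sgcd element neither. Among these 5 elements, only that near Sgcd matched the CTCF consensus. The other 4 read ccctcttctgg at the corresponding place, which differs from the consensus at a single base.

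Next are 3 elements in peaks whose nearest genes are named below. The peaks lay 140517 bp (2810405F15Rik), 2651 bp (3632451O06Rik) and 12710 bp (Gfi1) upstream of the transcription start site. The elements of 2810405F15Rik (chr2:116216536-116216746, minus strand) and 3632451O06Rik (chr14:49785897-49786095, plus strand) are shown because they matched the CTCF consensus. That of Gfi1 (chr5:107738355-107738553, plus strand) held an A box, and its gene is of the granulocyte lineage. Elements of Erg, Themis and Zap70, also genes of the lineage lists, held a box of the internal promoter too and are not shown.
2810405F15Rik: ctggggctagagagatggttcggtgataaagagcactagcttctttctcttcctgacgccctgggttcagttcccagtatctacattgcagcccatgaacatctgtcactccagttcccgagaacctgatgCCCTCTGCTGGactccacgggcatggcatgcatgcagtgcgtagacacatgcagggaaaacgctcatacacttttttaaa
3632451O06Rik: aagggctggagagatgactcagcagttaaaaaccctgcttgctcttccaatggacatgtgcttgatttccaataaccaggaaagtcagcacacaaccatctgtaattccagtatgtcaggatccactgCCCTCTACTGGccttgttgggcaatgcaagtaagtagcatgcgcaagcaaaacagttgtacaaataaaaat
Gfi1: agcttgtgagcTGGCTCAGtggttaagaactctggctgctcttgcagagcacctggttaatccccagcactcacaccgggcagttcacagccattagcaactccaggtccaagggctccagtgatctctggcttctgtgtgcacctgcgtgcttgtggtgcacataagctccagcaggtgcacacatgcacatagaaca

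Elements were located in the peaks with a B2 profile of 212 positions. It matched the sequence at the centre of 1731 of the 1781 peaks (97.2%, 96.3 to 97.9%), with a median match of 181 bp. The profile was built from these same peaks, so this share cannot serve as a check of the deposited repeat name. The score of the match, in bits, had a median of 107 in B3, 80.9 in B3A and 119 in B2_Mm2.

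B3 was the most frequent subfamily with 958 peaks (53.8%, 51.5 to 56.1%), followed by B3A with 481 (27%, 25 to 29.1%) and B2_Mm2 with 299 (16.8%, 15.1 to 18.6%). The 2 youngest subfamilies contributed few, with 32 peaks for B2_Mm1t (1.8%, 1.28 to 2.53%) and 11 for B2_Mm1a (0.618%, 0.345 to 1.1%). Genomic copies were not assigned to subfamilies, so these counts have no number of copies per subfamily beside them. They do not show whether a subfamily was in peaks more or less often than its copies would give. Younger copies resemble each other more closely, and the authors left out reads that mapped to several places. The part of this step in the low numbers was not tested.

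**Figure D1:**
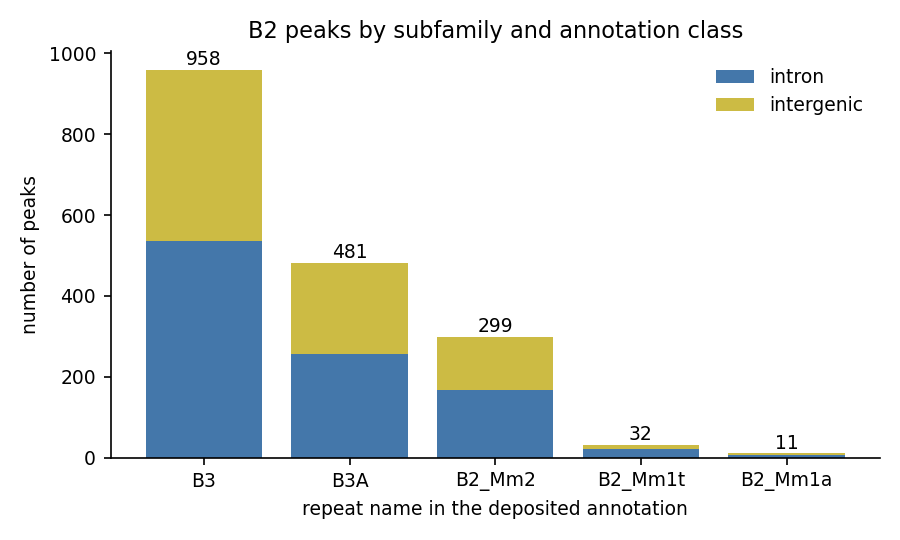
Number of B2 peaks (vertical axis) by repeat name in the deposited annotation (horizontal axis), stacked by intron and intergenic class. B3, with 958 peaks, is the tallest bar, and introns form the larger portion in each subfamily.

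Introns held 987 B2 peaks (55.4%, 53.1 to 57.7%) and intergenic sequence held 794 (44.6%). No B2 peak was annotated to a promoter, exon, untranslated region or transcription termination site, and neither was any of the 12746 repeat peaks, because the annotation names a repeat only where no such class applies. The intronic share ranged from 53.4% in B3A to 68.8% in B2_Mm1t (51.4 to 82%), with overlapping intervals. It was 53.9% among intron and intergenic peaks on no repeat and 44.6% among peaks on other repeats (43.6 to 45.5%).

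Intronic B2 peaks lay less often in the first intron. Of the 987, 253 were in intron 1 (25.6%, 23 to 28.4%), against 36.2% (35.7 to 36.8%) of intronic peaks on no repeat and 34.9% (33.5 to 36.2%) of those on other repeats. Peaks on B4 and B1, the 2 other common rodent SINE families, were in intron 1 in 37.9% (33.3 to 42.7%) and 32.7% (27.3 to 38.6%) of cases. Counted on 1 RefSeq Select transcript per gene, the share was 25.1% (22.4 to 27.9%) for B2 peaks and 26.1% (25.9 to 26.4%) for B2 copies outside peaks. It was 29.7% (27.6 to 31.9%) for B2 copies with their centre in a peak of any kind, above that of copies outside peaks.

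For 696 of 984 intronic B2 peaks with a named host (70.7%, 67.8 to 73.5%), the host was also the gene with the nearest transcription start site (TSS). For the remaining 288 the symbol of the host differed from that of the gene with the nearest TSS. Symbols were compared as written, so a gene named differently in the deposited list and in RefSeq counts among them. The share was 72.4% (71.9 to 72.9%) for intronic peaks on no repeat.

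The median distance of a B2 peak to the nearest TSS was 16006 bp (95% order-statistic bounds 15175 to 17243 bp), with quartiles of 7274 and 35350 bp. The median was 23692 bp (23345 to 24085 bp) for intron and intergenic peaks on no repeat and 25454 bp (24746 to 26330 bp) for peaks on other repeats. Peaks on B1 had a median of 17644 bp (15800 to 20373 bp), whose bounds overlapped those of B2 peaks, and peaks on B4 one of 20215 bp (18481 to 22511 bp). Distances differed between subfamilies. B2_Mm2 peaks were closest, with a median of 10441 bp (9346 to 12304 bp), B3 peaks were at 16400 bp (15247 to 18173 bp) and B3A peaks at 21326 bp (18169 to 24034 bp). The range of B2_Mm2 was separate from the other 2, which overlapped at their ends. B2_Mm1t and B2_Mm1a, with medians of 15352 bp and 11774 bp, had bounds too wide to be placed.

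Within 10 kb of a TSS lay 608 B2 peaks (34.1%, 32 to 36.4%), against 27.8% (27.4 to 28.2%) of peaks on no repeat and 22.9% (22.2 to 23.7%) of those on other repeats. The B2_Mm2 share was 47.5% (41.9 to 53.1%) and the B3A share 27.4% (23.6 to 31.6%). Beyond 100 kb lay 115 B2 peaks (6.46%, 5.41 to 7.69%), against 13.7% of peaks on no repeat and 14.8% of those on other repeats. Within 2 kb lay 82 B2 peaks (4.6%, 3.72 to 5.68%), fewer than the 7.68% (7.46 to 7.91%) of peaks on no repeat and more than the 3.02% (2.71 to 3.36%) of peaks on other repeats. Between 1 and 2 kb the shares of B2 peaks (4.21%) and of peaks on no repeat (4.3%) were alike.

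**Figure D2:**
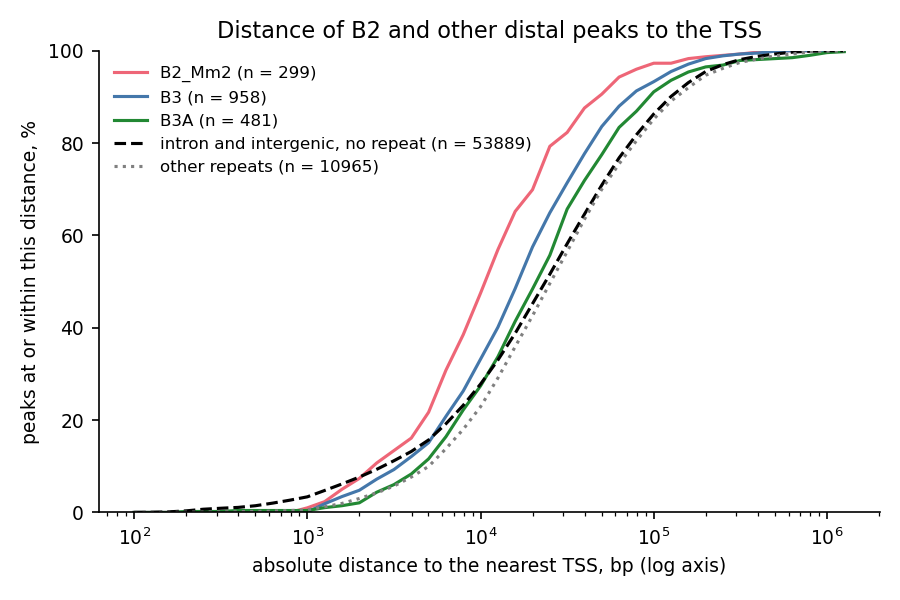
Cumulative share of peaks (vertical axis, %) at or within a given absolute distance to the nearest TSS (horizontal axis, bp, log scale) for the 3 larger B2 subfamilies, for peaks on other repeats and for intron and intergenic peaks on no repeat. The B2_Mm2 line, with a median of 10441 bp, runs left of the B3 and B3A lines.

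The B2 peaks nearest to a TSS were few. Within 500 bp lay 0.168% of them (0.0573 to 0.494%). The share was 1.44% (1.35 to 1.55%) for intron and intergenic peaks on no repeat and 0.228% (0.154 to 0.336%) on other repeats. Promoter annotation takes precedence over repeats, and the promoter class in the list spanned -1000 to 875 bp. The part of this precedence in the low number of B2 peaks was not tested. Only 3 lay within 500 bp, all in intron 1: at 174 bp from Rpl37rt, a retrotransposed copy of a ribosomal protein gene (chr5:115107539-115108037, B3A), at 387 bp from Fam161a (chr11:23013525-23014023, B3A) and at 397 bp from H2-T24, a class I histocompatibility gene (chr17:36019914-36020412, B3). Next came 3 intronic B2_Mm2 peaks, at 804 bp in Flot2, which encodes the membrane raft protein flotillin 2 (chr11:78040862-78041360), at 845 bp in Pdcd2l (chr7:34195576-34196074) and at 988 bp in Isoc2b (chr7:4864942-4865440). The other 4 of the nearest 10 were upstream of 2610524H06Rik (1026 bp, B3), of Nup133, a nuclear pore protein (1030 bp, B3A), and of Lsm2, an RNA-binding Sm-like protein (1065 bp, B2_Mm2), and in intron 1 of the noncoding gene Gm5079 (1059 bp, B3).

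The nearest gene was protein-coding for 1602 B2 peaks (89.9%, 88.5 to 91.3%), against 83.8% (83.5 to 84.1%) of intron and intergenic peaks on no repeat. It was a noncoding RNA gene for 165. B2 peaks had a median GC content of 43.5%, against 48.1% on no repeat and 46.1% on other repeats. Another peak of any kind lay within 2 kb of 385 B2 peaks (21.6%, 19.8 to 23.6%). The share was higher for peaks on no repeat (27.8%, 27.4 to 28.2%) and on B1 (33.7%, 29.3 to 38.4%). For peaks on other repeats it was 23.9% (23.1 to 24.7%), an interval that overlapped that of B2 peaks.

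Most genes near B2 peaks had a single one. The 1781 peaks had 1651 nearest genes, of which 1529 had 1 peak, 114 had 2 and 8 had 3. The 8 genes with 3 were Abcd2 (of 15 peaks of any kind), Aebp2 (of 28), Bbx (of 14), Ctnna3 (of 15), Golim4 (of 15), Smim18 (of 10), Yy1 (of 12) and Zdhhc12 (of 4). Yy1 encodes a zinc finger factor that itself takes part in enhancer-promoter contacts, Aebp2 a cofactor of Polycomb repressive complex 2, and Bbx an HMG-box transcription factor.

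All 3 B2 peaks of Yy1 were intergenic and upstream of it, 2 on B3A elements at 32603 bp (chr12:108760459-108760957) and 29601 bp (chr12:108763461-108763959) and 1 on B3 at 8071 bp (chr12:108784991-108785489). Those of Aebp2 were intergenic and spread from 12337 bp upstream (chr6:140610077-140610575) to 226782 bp downstream of its TSS (chr6:140853418-140853916). Bbx had 2 B2 peaks in its intron 2, on B3A (chr16:50374522-50375020) and B3 (chr16:50420055-50420553), and 1 on B3A upstream (chr16:50449003-50449501). For other genes the nearest TSS was not that of the gene holding the peaks. The 3 B2 peaks with Abcd2, a peroxisomal fatty acid transporter, as nearest gene lay 109523 to 146535 bp upstream of it. They were in introns 6 and 7 of Slc2a13, a sugar transporter gene. The 3 B2 peaks with Smim18 as nearest gene lay in introns 2 and 6 of Gtf2e2, which encodes a subunit of the general transcription factor TFIIE.

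Ctnna3, a catenin of cell junctions, had B3 and B2_Mm2 peaks 2182 bp apart and upstream of it (chr10:63422189-63422687 and chr10:63424371-63424869), and a B3A peak in its intron 5. Golim4, a Golgi membrane protein, had 1 of its 3 B2 peaks in intron 14 of 15 (chr3:75879224-75879722), 77476 bp downstream of the TSS. Zdhhc12, a palmitoyltransferase, had B2 peaks in introns of Pkn3 (chr2:30087276-30087774) and Zer1 (chr2:30106318-30106816) and 1 intergenic between them (chr2:30095813-30096311). Of the 4 peaks with Zdhhc12 as nearest gene, 3 were thus on B2 elements. Of the 7 genes named next by symbol, each with 2 B2 peaks, Abraxas1, a subunit of the BRCA1 A complex, had 1 in intron 1 at 1188 bp and 1 upstream at 5242 bp, and Abca5, a lipid transporter, had 2 upstream at 20254 and 27482 bp. The other 5 were known by RIKEN symbols only: 1810055G02Rik, 2810405F15Rik, 2810414N06Rik, 3632451O06Rik and 9430078K24Rik. Neighbouring B2 peaks were a median of 518509 bp apart, with 52 pairs within 10 kb and 3 within 1 kb, near Tmem86b (549 bp), Agk (843 bp) and Zfp628 (1000 bp).

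The share of B2 peaks near genes of the blood lineages depended on how peaks were assigned to genes. Over 6 lists of lineage genes, 12 of the 1073 peaks with a listed gene as nearest were on B2 elements (1.12%, 0.641 to 1.94%), against 2.11% of the whole list. Over all peaks in the bodies of these genes and 50 kb around them it was 28 of 1762 (1.59%, 1.1 to 2.29%), an interval that includes the share of the whole list. By nearest gene, the counts were 2 of 228 peaks for stem cell genes (0.877%), 4 of 141 for megakaryocyte and platelet genes (2.84%), 1 of 138 for erythroid genes (0.725%), 1 of 134 for granulocyte and macrophage genes (0.746%), 0 of 186 for B cell genes (0 to 2.02%) and 4 of 246 for T cell genes (1.63%). The interval included the share of the whole list for each list except that of B cell genes, and with the wider windows for that list too (2 of 338, 0.592%, 0.162 to 2.13%).

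Among stem cell genes, Erg, an ETS factor required for HSC maintenance, had a B3A peak in intron 1 of 10 (chr16:95570553-95571051), and Meis1, a homeobox factor of HSCs, had a B3 peak in intron 6 of 11 (chr11:18996255-18996753). They were 1 of 29 and 1 of 18 peaks of these genes. Among megakaryocyte and platelet genes, Itgb3, the platelet integrin beta 3 chain, had a B3 peak in intron 10 of 14 (chr11:104648492-104648990). Its partner chain gene Itga2b was the nearest gene of 4 peaks. The 1 on B2_Mm2 lay 17298 bp upstream in an intron of Gpatch8 (chr11:102486932-102487430). Of 14 peaks with F2rl2, a thrombin receptor gene, as nearest gene, 1 was on B3A in intron 17 of 35 of Iqgap2 (chr13:95679385-95679883). Gp1ba, part of the platelet receptor for von Willebrand factor, had an intergenic B3 peak 9378 bp upstream (chr11:70629495-70629993), 1 of its 2 peaks.

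Tfrc, the transferrin receptor by which erythroid cells take up iron, had a B2_Mm2 peak in intron 2 of 18, 5155 bp from the TSS (chr16:32614028-32614526). Gfi1, a transcriptional repressor in granulocyte development, had an intergenic B3 peak 12710 bp upstream (chr5:107738266-107738764), whose element is printed above. Among T cell genes, Themis, a signalling protein of developing thymocytes, had a B2_Mm2 peak in intron 2 of 5 (chr10:28730051-28730549), and Tox, an HMG-box factor of thymic T cell development, a B3 peak in intron 3 of 8 (chr4:6817141-6817639). Ets1, an ETS factor of lymphocytes, had an intergenic B3A peak 43614 bp upstream (chr9:32652179-32652677), and Zap70, the kinase downstream of the T cell receptor, a B3 peak 16999 bp upstream in intron 7 of 8 of a noncoding transcript (chr1:36744550-36745048). The list does not say in which cells any of these 12 peaks was accessible.

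Peak centres were not spread evenly along the element. Counted from the 5′ end of the profile, the median position at the centre was 115 of 212 (quartiles 94 and 130). The fullest stretch of 10 positions was 120 to 130, with 310 of 1731 peaks, whereas positions 10 to 20, next to the A box, had 24. The median was 118 in B3, 110 in B3A and 115 in B2_Mm2. A centre had to lie on the element for a peak to be chosen, but the choice did not set where on it.

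**Figure D3:**
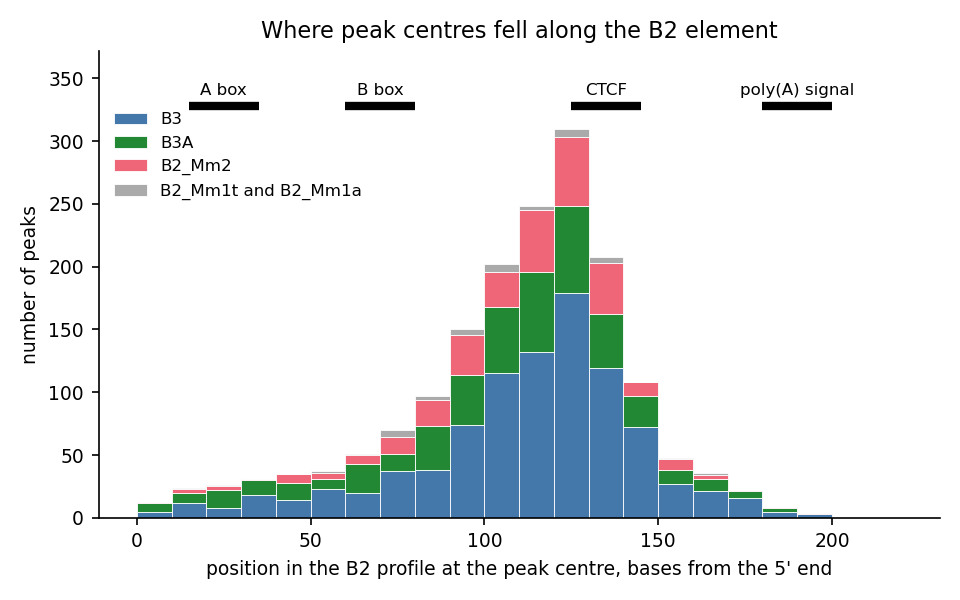
Number of B2 peaks (vertical axis) by the position of the peak centre in the B2 profile (horizontal axis, bases from the 5′ end), stacked by subfamily, with black bars at the 20 positions where matches to 4 motifs were densest. Centres pile up from 3′ of the B box into the CTCF stretch, with 310 peaks at 120 to 130 and 208 at 130 to 140.

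The 2 boxes, the polyadenylation signal and the CTCF consensus each had a preferred place in the element. A match to the A box stood in 579 of 1731 elements (33.4%, 31.3 to 35.7%), with 88.1% of matches at positions 15 to 35. The B box stood in 256 (14.8%, 13.2 to 16.5%), most often at 60 to 80, and the polyadenylation signal AATAAA in 411 (23.7%, 21.8 to 25.8%), most often at 180 to 200. Of 150 CTCF matches in 148 elements, 68.7% fell at 125 to 145 and 94.7% were on the strand of the element, and their median distance to the peak centre was 13 bp. Other strings were less concentrated, to differing degrees. The densest 20 positions held 27.2% of CAGGTG, 29.6% of GATA and 30.1% of ETS matches, but 51.2% of C/EBP and 59.7% of AP-1 matches. The RUNX, YY1, CAGCTG and TCF7 and LEF1 strings lay between, at 31.4 to 43.6%. AP-1 matches were densest at positions 10 to 30. In elements with a CTCF match the median position at the centre was 121, and in the 1583 without it was 115.

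Matches in whole peaks, on both strands, showed the same elements. The A box matched in 45.6% of B2 peaks (43.3 to 48%) and 34.1% of all peaks, the B box in 32.6% (30.5 to 34.8%) and 17%, and AATAAA in 68.6% (66.4 to 70.7%) and 32.8%. Among other SINEs, the B box matched in 33.3% of B1 peaks (28.9 to 37.9%), a share like that of B2 peaks, and 27% of B4 peaks (23.9 to 30.4%), and AATAAA in 48.5% and 47.9%. B2_Mm2 peaks had the B box in 53.5% (47.8 to 59.1%), against 28.9% in B3 and 26.6% in B3A. The CTCF consensus matched in 9.04% of B2 peaks (7.79 to 10.5%), against 7.68% of all peaks (7.51 to 7.87%), 9.42% (9.18 to 9.67%) of intron and intergenic peaks on no repeat and 4.46% (4.09 to 4.86%) of peaks on other repeats. It matched in 11.4% of B3A peaks (8.89 to 14.6%), 8.77% of B3 peaks (7.14 to 10.7%) and 6.35% of B2_Mm2 peaks (4.11 to 9.71%), with overlapping intervals.

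Strings of hematopoietic transcription factors are given beside all peaks and, since the whole list includes promoters, beside intron and intergenic peaks where this changed the order. GGAAGT, bound by ETS factors, matched in 26.2% of B2 peaks (24.2 to 28.3%) against 42.7% of all peaks. CAGCTG, an E-box, matched in 19.1% (17.4 to 21%) against 29.8%. TTGCNNAA, bound by C/EBP factors, matched in 15.3% against 19.3%, and CTTTGA, bound by TCF7 and LEF1, in 24.5% against 29.2%. The TTGCNNAA share was alike on B1 (14.8%) and B4 (15.4%), and CAGCTG intervals there overlapped that of B2 peaks (23.3% and 22.4%). The GGAAGT and CTTTGA shares were higher on B1 and B4 than on B2. AGATAA, bound by GATA factors, matched in 26.4% (24.4 to 28.5%) against 24.1% of all peaks, but in 26.7% of peaks on no repeat and 29.9% of those on other repeats. TGANTCA (AP-1) matched in 17.6% (15.9 to 19.4%) against 15.3% of all peaks, 17% on no repeat and 17.2% on other repeats. The E-box CAGGTG matched in 34.8% (32.6 to 37.1%) against 32.6% of all peaks and 33.1% on no repeat. AAGATGGC (YY1) matched in 6.46% (5.41 to 7.69%) against 3.4% of all peaks, 2.77% on no repeat and 5.92% (4.41 to 7.9%) on B4. TGTGGT, bound by RUNX factors, matched in 45.4% (43.1 to 47.7%) against 38.9% of all peaks, 41.7% on no repeat and 47.3% on other repeats, and in B2_Mm2 peaks in 74.2% (69 to 78.9%). Within elements this string was densest at positions 75 to 95, where the Ncoa2 element above reads caaccacatgg and so holds its reverse complement accaca. AAGATGGC and TGGCNNAG can share the letters TGGC, and CAGCTG and TGANTCA read the same on both strands. A match is a description of letters, not evidence that a factor was bound.

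To set the B2 peaks beside the B2 elements that were not in peaks, the profile was searched in the assembled chromosomes. It matched 318369 copies of at least 100 bp, of which 3555 had their centre in a peak of any kind (1.12%, 1.08 to 1.15%). The share of other genomic sequence in peaks is not given here, so this value has no background beside it. Of the 3555 copies, 1870 were in B2 peaks (52.6%), 1138 in intron or intergenic peaks centred on no repeat, 352 in peaks centred on another repeat and 195 in promoter, exon or other peaks. The centre of a B2 peak lay within 1683 copies (0.529%, 0.504 to 0.554%).

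Copies near genes were more often in a peak. The share fell from 1.84% (1.63 to 2.08%) within 2 kb of a TSS to 1.25% (1.19 to 1.31%) at 10 to 50 kb and 0.336% (0.292 to 0.387%) beyond 100 kb. Copies in a peak lay a median of 14562 bp from a TSS and copies outside peaks 24093 bp. Other sequence at the same distances is not given here, so the fall may not be particular to B2 copies. The share also depended on the likeness to the profile: it was 1.3% (1.21 to 1.39%) in the quintile of copies with the lowest scores and 0.725% (0.662 to 0.794%) in the quintile with the highest. The part of reads left out for mapping to several copies was not tested.

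Among intronic B2 peaks, 504 of 971 elements (51.9%, 48.8 to 55%) were antisense to the gene, against 57.6% (57.3 to 57.8%) of intronic B2 copies outside peaks. For intronic copies with their centre in a peak of any kind, it was 54.8% (52.6 to 57%), nearer to that of copies outside peaks. Among B2 peaks, the B2_Mm2 share was 54.2% (46.6 to 61.6%) and the B3A share 48.4% (42.3 to 54.6%), so the subfamilies could not be told apart.

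Copies with a CTCF match stood apart from the rest. Of 2737 copies with a match to the consensus, 167 had their centre in a peak (6.1%, 5.26 to 7.06%), against 3388 of 315632 without (1.07%, 1.04 to 1.11%), a ratio of 5.68 (95% log-normal interval 4.89 to 6.61). For the centre of a B2 peak within the copy the shares were 5.3% and 0.487%, a ratio of 10.9 (9.21 to 12.8). The difference was seen in each quintile of the profile score, from 12.4% (9.33 to 16.4%) against 1.24% (1.15 to 1.33%) in the lowest to 2.02% (1.19 to 3.43%) against 0.712% (0.649 to 0.781%) in the highest. It was also seen within 10 kb of a TSS (7.68% against 1.52%) and farther away (5.46% against 0.909%).

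**Figure D4:**
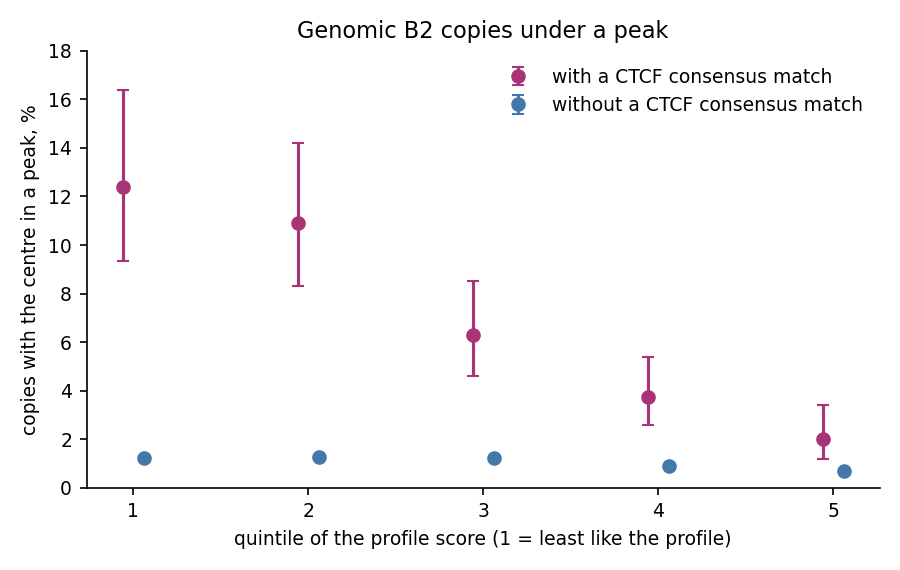
Share of genomic B2 copies with their centre in a peak (vertical axis, %) by quintile of the profile score (horizontal axis, 1 = least like the profile), for copies with and without a match to the CTCF consensus, with 95% Wilson intervals. Copies with a match fall from 12.4% to 2.02% and lie above those without in each quintile.

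Shares differed with the place of the match in the element. The commonest near-matches and matches on the strand of the element fell at 2 places, around positions 91 and 134 of the profile. The strings are given in lower case, with a base that differs from the consensus in capitals and with the share of copies whose centre was in a peak.
Position 91, 1 difference: ccacAtggtgg, in 65468 copies, 0.727% in a peak (0.665 to 0.795%)
Position 91, no difference: ccacctggtgg, in 511 copies, 0.587% in a peak (0.2 to 1.71%)
Position 134, 1 difference: ccctctTctgg, in 31598 copies, 2.7% in a peak (2.52 to 2.88%)
Position 134, no difference: ccctctactgg, in 758 copies, 5.67% in a peak (4.24 to 7.55%)
Position 134, no difference: ccctctgctgg, in 935 copies, 8.66% in a peak (7.02 to 10.6%)
Position 134, no difference: ccccctgctgg, in 73 copies, 12.3% in a peak (6.62 to 21.8%)

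At position 134 the family string ccctctTctgg, seen in the elements near Rtn4 and Grm4, already went with a higher share than that of all copies, and the forms with A or G at that base, as near 3632451O06Rik and 2810405F15Rik, with a higher share again. At position 91 a full match went with no higher share than the near-match. The 199730 copies with 2 or more differences throughout went with a share of 0.849% (0.809 to 0.89%).

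Other motifs moved the share less. It was higher in copies with the ETS string (1.7%, 1.51 to 1.91%, against 1.09%) and with CAGCTG (1.61%, 1.44 to 1.81%, against 1.09%). It was lower in copies with the boxes of the internal promoter, 0.731% (0.685 to 0.781%) with a B box against 1.36% (1.31 to 1.41%) without, and 0.973% (0.922 to 1.03%) with an A box against 1.23% (1.18 to 1.28%) without. Since boxes are kept in copies that are most like the profile, the B box was also compared within quintiles of the score. The share was 0.557% (0.493 to 0.63%) with it and 1.14% (0.999 to 1.31%) without in the highest quintile, and 1.21% (0.981 to 1.48%) and 1.31% (1.22 to 1.4%) in the lowest, where the intervals overlapped. Shares were also lower in copies with AATAAA (0.864% against 1.26%) and TGTGGT (0.956% against 1.2%), and slightly higher with CAGGTG (1.25% against 1.09%). By the copy centre, intervals of the ratio included 1 for GATA, AP-1, C/EBP, TCF7 and LEF1, and YY1 strings. By the centre of a B2 peak within the copy, the GATA ratio was 1.32 (1.09 to 1.59), and the B box ratio was 0.286 (0.25 to 0.327) in place of 0.54 (0.5 to 0.582).

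**Figure D5:**
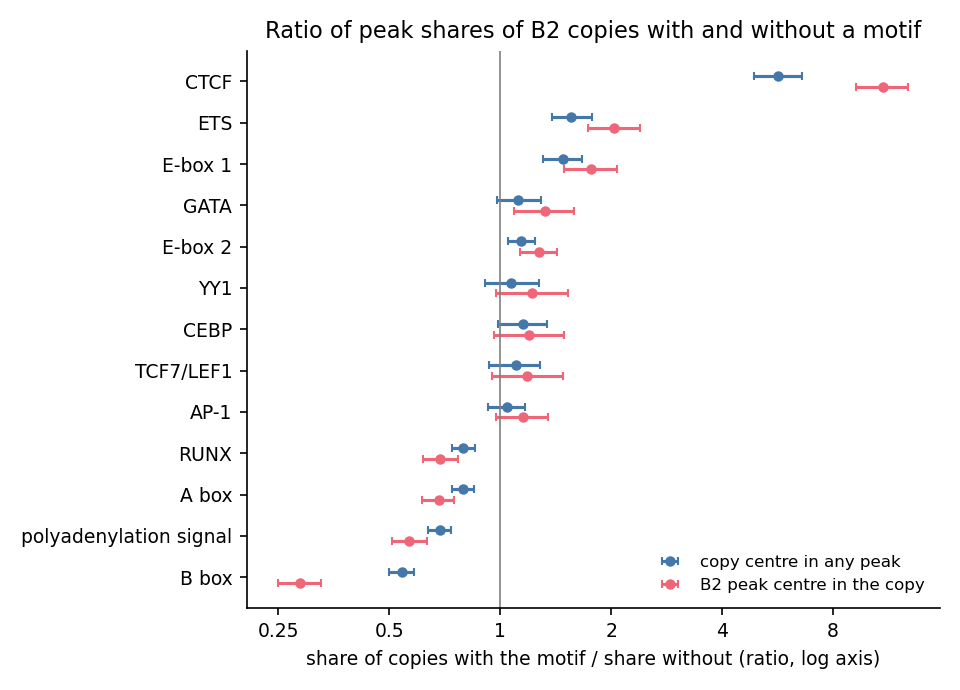
Ratio (horizontal axis, log scale) of the share of B2 copies in a peak with a motif to that without, for 13 motifs (vertical axis), with 95% log-normal intervals, counted by the copy centre in any peak and by the centre of a B2 peak in the copy. E-box 1 is CAGCTG and E-box 2 is CAGGTG. CTCF is farthest to the right, at 5.68 and 10.9, and the B box farthest to the left.

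By chromosome, B2 peaks made up 1.57% (1.15 to 2.13%) of the peaks of chromosome 19, the lowest autosome, and 2.43% (2.04 to 2.89%) of those of chromosome 5. The X chromosome had the highest share, 57 of 1829 peaks (3.12%, 2.41 to 4.02%), but the fewest B2 peaks per Mb among chromosomes with any, 0.349, against 0.97 on chromosome 17. Of B2 copies on X, 0.616% (0.501 to 0.756%) had their centre in a peak, against 0.873 to 1.45% on the autosomes. The 11 peaks of the Y chromosome held no B2 peak.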

How the data were processed

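Peaks of 12 ATAC-seq samples, 2 replicates of each of 6 cell types grouped by their titles, were analyzed as the pooled master peak-list. The authors aligned reads to mm10 with the ENCODE ATAC-seq pipeline, leaving out multimapping reads, concatenated the optimal lists of the cell types, kept non-overlapping peaks with chromVAR and annotated them with HOMER (4.10.2 per the labels). The deposited peak score was 0 in all 84243 peaks and was not used. Start, end and distance to the TSS are in bp as deposited by the authors. The depth of the samples is unknown, there were 0 columns per sample, and replicates could not be compared.

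Sequence and curated transcripts were from RefSeq GRCm38.p6, the mm10 assembly. For 1559 B2 peaks (87.5%) the deposited TSS distance was within 2 bp of that to a curated RefSeq TSS. The B2 profile was started from at most 995 elements, aligned with BLAST+ 2.17.0 and MAFFT 7.526. With HMMER 3.4 it was rebuilt over 3 rounds from its matches in all B2 peaks, and searched with nhmmer at an E-value of 1e-05. Since it was built from the peaks, it may find copies like them more readily. Motifs were exact strings on both strands. Shares have 95% Wilson intervals, ratios have log-normal intervals on the log scale, and medians have order-statistic bounds. No test was run, because peaks are not replicates. Searches were tested on simulated data.

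The members, gene lists and motifs were chosen with earlier results of these data known. Genes were named by rule: those with the most B2 peaks (at most 15, ties by symbol), those of 6 lineage lists with a B2 peak, and the 10 peaks nearest to a TSS. Genes of close pairs, and host genes of named peaks, were added after values were seen. Printed elements were the best match of each subfamily and up to 3 near named genes, CTCF matches first. Alternatives concerned the member definition, TSS limits and sources, gene assignment, motif matching and copy length. The software was pandas 2.3.3, numpy 2.4.6 and matplotlib 3.10.9 under Python 3.11.15.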

Additional observations from a re-analysis of the deposited data

How the results depend on the processing

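The median TSS distance, the intron and intergenic shares, the subfamily shares and the orientation moved by less than their intervals under each alternative tried. Taking every peak with a B2 profile match of at least 50 bp anywhere gave 3591 peaks in place of 1781. With a limit of 100 bp around the TSS 0 B2 peaks lay within it, and with 1000 bp 6. Promoter annotation takes precedence over repeats, and no intron or intergenic peak lay nearer than 101 bp. The 0 was therefore set by the annotation and is not a result about B2 peaks. By gene body, 62 genes held 2 or more B2 peaks in place of 122. Within gene bodies and 50 kb around them there were 3 B2 peaks of 245 for erythroid (1.22%), 6 of 266 for granulocyte and macrophage (2.26%), 2 of 338 for B cell (0.592%) and 8 of 320 for T cell genes (2.5%), and the intervals of all 6 lists then included the 2.11% of the whole list. With 1 mismatch the share of B2 peaks with a match was 99.5% for the A box, 98.1% for the B box and 74.1% for CTCF, and the other 10 motifs ranged from 75.7 to 99.9%. In the central 200 bp it was 26% for the A box and 15.3% for the B box, and in the B2 match alone 33.4% and 14.8%, whereas the CTCF share moved by less than its interval (8.87% and 8.55%). The share of genomic copies in a peak was 1.06% from 150 bp of length and 1.65% with any overlap. Counting the centre of a B2 peak within the copy, an alternative chosen after seeing the data, gave 0.529%, and raised the CTCF ratio from 5.68 to 10.9. No paired analysis was possible because the pooled list holds no value per sample. Depth limits every count in a way these data cannot show.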

Other observations

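Gene families chosen after the files were seen differed in their share of B2 peaks. Peaks nearest to olfactory receptor genes (Olfr symbols) were on B2 elements in 12 of 195 cases (6.15%, 95% Wilson interval 3.55 to 10.4%), and peaks nearest to ribosomal protein genes (Rpl and Rps symbols) in 16 of 275 (5.82%, 3.61 to 9.24%), against 2.11% of the whole list. The share was 2.3% (1.57 to 3.35%) for zinc finger genes with Zfp symbols, 2.7% (2.01 to 3.63%) for solute carrier genes (Slc symbols) 1.53% (150 of 9832 peaks, 1.3 to 1.79%) for genes with Rik or Gm symbols, and 1.79% (1 of 56 peaks, 0.316 to 9.45%) for vomeronasal receptor genes (Vmn symbols).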
